A study of Mus musculus with 2 samples.

Results

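The regions described here are the background lines of chromosome 11 in a map of NRF1 binding made by chromatin immunoprecipitation and sequencing (ChIP-seq) in a mouse B-cell lymphoma line. A peak caller ranked 300000 lines over the genome for the pooled libraries, and this long ranking holds true peaks as well as background. A background line is a line of this pooled list that overlaps no peak of the optimal set, the peaks that passed the authors' test of irreproducible discovery rate. The lines were therefore chosen by measured values, the caller's ranking and its repeatability. On chromosome 11, 31851 of the 34208 lines were background and 2357 overlapped one of its 2197 optimal peaks. The whole list held 281375 background lines, 247476 of them on the other 18 autosomes.

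NRF1 (nuclear respiratory factor 1) recognises a GC-rich palindrome in the promoters of many housekeeping and mitochondrial genes. A list of peaks and background is kept long on purpose, so that a test of repeatability can learn from the low ranks what noise looks like. Irreproducible discovery rate does this by comparing the ranks that replicates give to the same places. Its low lines are places with some gathering of reads that did not pass that comparison.

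The 2 libraries, replicates 1 and 2, came from CH12.LX cells with no treatment named, an established line from strain B10.H-2aH-4bp/Wts labelled female, and both were made with an antibody to NRF1. They form 1 group, from 1 line, so the design holds no comparison between conditions and nothing here is shown to hold beyond this line. A control library entered the authors' peak calling and was not analysed here. No test was run: the lines were selected on the readout, and lines and bins of 1 genome share their libraries. Replicate values are given as mean ± SD over the 2 replicate lists, which also hold 300000 lines each. The number of reads behind each list was not stated, and depth is therefore unknown.

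Sequences of 6 promoters are printed as examples. They were picked by signal and by whether they hold NRF1 letters, so they do not show how common those letters are, which the counts over all windows give. Each run holds the 250 bases before a transcription start site (TSS) of chromosome 11, from RefSeq, build GRCm38.p6, which has the coordinates of mm10. Capitals mark GCATGCGC or its reverse complement GCGCATGC, 8 bases of the NRF1 palindrome, and the other bases are in lower case. Matches may overlap, and in the Rapgef6 run the last one goes on past the start site, where the run ends. The first 3 belong to the promoters with the strongest background lines that covered at least 200 bases of the promoter window. Cwc25 encodes a spliceosome protein (chr11:97766614-97766863, minus strand, line signal 36.8), Taf15 an RNA-binding protein (chr11:83472858-83473107, plus strand, 32.6) and Map3k3 a protein kinase (chr11:106084337-106084586, plus strand, 32.6). Krtap16-1, a hair keratin-associated gene (chr11:99986594-99986843, minus strand, 8.75), is the 1 promoter window with a background line alone that held the 8 bases. Its line covered 65 bases of the window and did not reach the 8 bases, and it had no match in replicate 1. Rapgef6, a guanine nucleotide exchange factor gene (chr11:54522595-54522844, plus strand, 662), and Ints2, an Integrator complex gene (chr11:86257595-86257844, minus strand, 651), had optimal peaks. These peaks were the strongest among chromosome 11 promoters whose first match to the 8 bases lay wholly before the start site. Promoters whose first match reached the start site or lay after it were not ranked.
Cwc25: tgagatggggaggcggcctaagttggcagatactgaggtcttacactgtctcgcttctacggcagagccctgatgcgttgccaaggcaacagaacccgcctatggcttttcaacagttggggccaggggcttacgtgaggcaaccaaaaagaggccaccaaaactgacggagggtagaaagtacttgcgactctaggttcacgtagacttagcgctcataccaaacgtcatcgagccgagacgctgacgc
Taf15: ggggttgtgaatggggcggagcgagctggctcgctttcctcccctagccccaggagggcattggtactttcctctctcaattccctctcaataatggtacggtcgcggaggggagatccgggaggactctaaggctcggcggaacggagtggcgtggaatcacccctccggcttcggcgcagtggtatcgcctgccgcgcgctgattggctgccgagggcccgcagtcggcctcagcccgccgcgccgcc
Map3k3: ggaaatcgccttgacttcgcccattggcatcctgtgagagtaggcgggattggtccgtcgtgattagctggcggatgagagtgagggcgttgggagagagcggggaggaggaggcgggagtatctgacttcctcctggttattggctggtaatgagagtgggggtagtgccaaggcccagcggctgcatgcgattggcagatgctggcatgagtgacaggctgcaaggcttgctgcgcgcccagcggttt
Krtap16-1: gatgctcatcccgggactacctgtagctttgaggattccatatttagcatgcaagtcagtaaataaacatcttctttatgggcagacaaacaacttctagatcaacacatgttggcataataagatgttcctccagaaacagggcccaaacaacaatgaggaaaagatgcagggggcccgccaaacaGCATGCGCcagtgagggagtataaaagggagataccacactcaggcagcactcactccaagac
Rapgef6: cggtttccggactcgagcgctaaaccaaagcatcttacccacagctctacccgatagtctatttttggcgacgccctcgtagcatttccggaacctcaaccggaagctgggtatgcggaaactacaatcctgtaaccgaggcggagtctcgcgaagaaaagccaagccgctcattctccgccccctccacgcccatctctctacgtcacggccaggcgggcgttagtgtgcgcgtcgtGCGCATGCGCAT
Ints2: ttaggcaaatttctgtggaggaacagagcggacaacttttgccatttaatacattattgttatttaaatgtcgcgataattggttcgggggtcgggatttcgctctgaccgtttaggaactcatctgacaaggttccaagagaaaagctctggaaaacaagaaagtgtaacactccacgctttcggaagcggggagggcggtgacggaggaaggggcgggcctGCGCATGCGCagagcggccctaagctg

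A window from 250 bases before to 50 bases after a start site was used for counts, on 1561 windows of protein-coding genes of chromosome 11. An optimal peak overlapped 706 windows (45.2%, 95% Wilson interval 42.8 to 47.7), a background line alone 276 (17.7%, 15.9 to 19.7) and neither 579 (37.1%). On the other autosomes of the promoter table these shares were 32.3%, 16.7% and 51.0%, so the share with background alone was close. Windows with no optimal peak but a background line in both replicate lists made up 8.97% on chromosome 11 and 8.93% on the others. The letters were counted anywhere in a window, under the line or not. Of the windows of chromosome 11 with an optimal peak, 48 held the 8 bases on either strand (6.80%, 5.17 to 8.90). Of those with a background line alone, 1 did (0.362%, 0.0640 to 2.02), and of those with neither, 6 did (1.04%, 0.476 to 2.24). Over all 1561 windows the share was 3.52%. The other form of the site, GCGTGCGC or GCGCACGC, lay in 60 windows with an optimal peak, 3 with a background line alone and 5 with neither. For both forms, the intervals of windows with a background line alone and with neither overlapped, and that of windows with an optimal peak lay above both. Windows of a gene can overlap each other, so these intervals only describe the counts. For the 8 bases, the order of the classes was similar on the 17 other autosomes of the promoter table. There 9.31% of 5984 optimal windows held them, 0.583% of 3087 windows with background alone and 0.859% of 9430 with neither. The other form lay in 10.4%, 1.33% and 1.27% of these windows. Base composition moved with the classes on chromosome 11: median GC was 62.3%, 56.3% and 51.7%, and the median number of CpG 24, 9 and 5. Its part in the counts was not tested.

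Chromosome 11 carried more background lines per Mb than any other autosome, in the pooled list and in each replicate list. The pooled list had 268 lines per Mb there, over the 118.8 Mb from the first to the last line. The other 18 autosomes ran from 90.3 (chromosome 14) to 183 (chromosome 16), with a median of 103. The density on chromosome 11 was thus 2.60 times that median and 1.46 times the density on chromosome 16. Replicate 1 had 222 lines per Mb and replicate 2 had 238, or 230 ± 11.7 (SD, n = 2), against a median over the other autosomes of 107 ± 0.376. The ratio was 2.07 in replicate 1 and 2.24 in replicate 2, both below that of the pooled list. Chromosome 11 makes up 4.96% of the autosomal span and took 10.6% of the 300000 pooled lines as background, 8.79% in replicate 1 and 9.44% in replicate 2. Chromosome 16 came next in each list, at 158 and 170 lines per Mb in replicates 1 and 2, followed by chromosome 19.

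**Figure D1:**
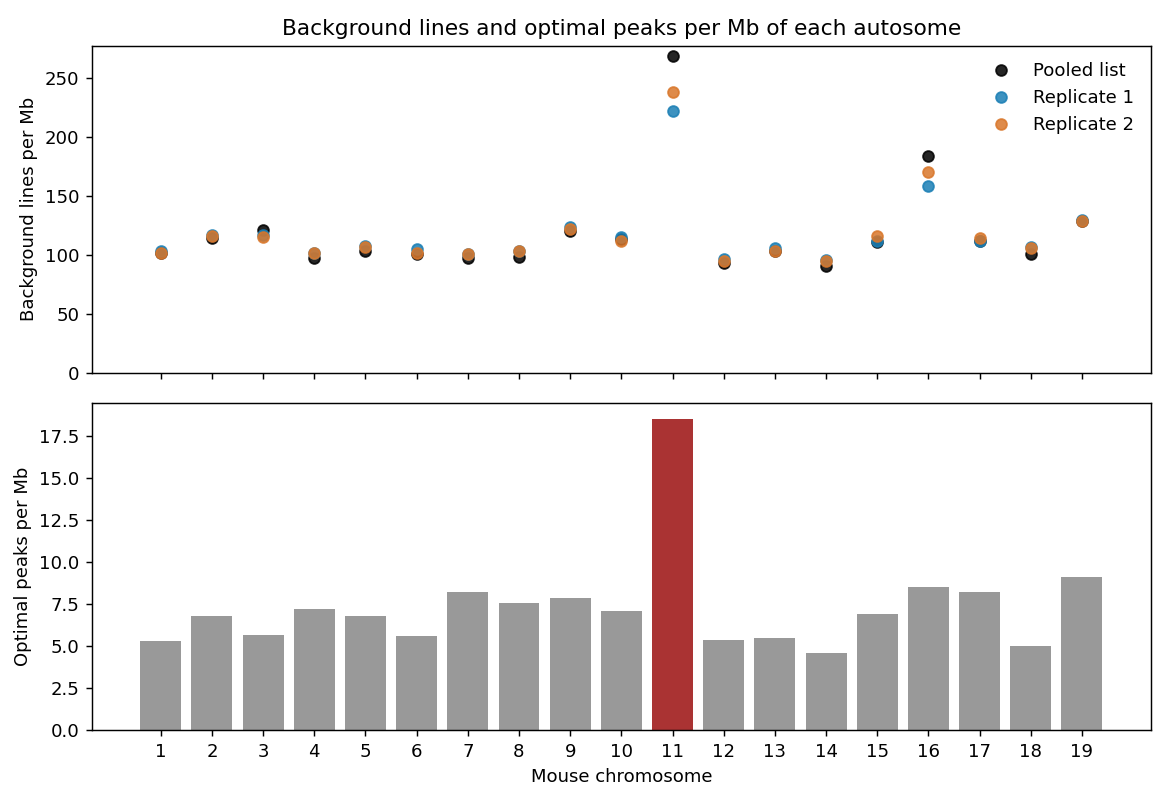
Background lines per Mb (upper panel, points for the pooled list and each replicate list) and optimal peaks per Mb (lower panel, bars) for the 19 autosomes. Chromosome 11 is highest in both panels, at 268 background lines and 18.5 optimal peaks per Mb, and chromosome 16 is second in background.

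The background lines of chromosome 11 were also somewhat stronger, though signal took part in choosing them. The caller's signal value has no stated scale and is compared only within a list. Its median was 6.35 on chromosome 11 (quartiles 5.39 and 7.96) and from 5.91 to 6.23 on the other autosomes in the pooled list. The median ran at 3.67 against 3.37 to 3.53 in replicate 1, and at 4.06 against 3.86 to 3.89 in replicate 2. The share of lines on chromosome 11 differed between signal classes. In the pooled list it was 9.65% of the autosomal lines with signals from 4.70 to 4.94, and 9.06% of those from 5.41 to 5.72. It reached 14.3% for signals from 7.92 to 9.58 and 15.3% from 9.58 to 11.7, and was 13.6% for the 2794 strongest, above 17.0. In the class from 9.58 to 11.7 the density was 3.68 times the median of the other autosomes, against 1.92 times in that from 5.41 to 5.72. The replicate lists had their highest ratios at high signals too, 3.21 in replicate 1 and 3.62 in replicate 2. Their lowest ratios were smaller than the lowest of the pooled list: 0.650 in replicate 1, for signals of 2.78 to 2.79, and 1.47 in replicate 2, for 3.68 to 3.87. The first of these was the 1 class of the 3 lists in which chromosome 11 lay below the median of the other autosomes. Of the 32855 autosomal lines of that class, 32441 carried 1 shared signal value, so it stands for tied lines more than for a range of signal. Every background line of chromosome 11 in the pooled list was 344 bp wide.

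In bins of 1 Mb the excess was spread over most of the chromosome, with deep troughs between. The 117 full bins of chromosome 11 held from 27 to 568 pooled lines, with a median of 291 (quartiles 180 and 384). The 2254 bins of the other autosomes held from 0 to 480, with a median of 97 (33 and 167). A bin was called dense when it held more lines than the 90th percentile of the bins of the other autosomes, which was 224.7 lines. By this rule 75 of the 117 bins were dense (64.1%), where 12.7% of all autosomal bins were. Replicate 1 gave 69 dense bins (12.2% of all autosomal bins) and replicate 2 gave 74 (12.4%). The replicates picked nearly the same stretches: 68 bins were dense in all 3 lists and 41 in none. On chromosome 16, the autosome with the most dense bins among the others, 39 of 94 were. Only 17 bins of chromosome 11 lay below the median bin of the other autosomes. Across the 117 bins, counts in the replicate lists had a Spearman rho of 0.966, and across the 2254 other bins 0.980. Bins share their libraries, so these values only describe the profile.

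The 5 fullest bins lay beyond 69 Mb and held 10 to 63 genes each. The highest, at 117000001 to 118000000 (mm10), held 568 pooled lines, 468 in replicate 1 and 480 in replicate 2, with 64 optimal peaks. Septin9, a cytoskeletal GTPase gene, carried 106 of its lines, Tnrc6c, a gene of miRNA-guided silencing, 46, and Sec14l1 27. The bin at 97000001 to 98000000 followed with 457 lines (375 and 382 in the replicates), among them 46 over Arhgap23, 39 over Srcin1 and 22 over Plxdc1. At 115000001 to 116000000 there were 448 (357 and 397), with 38 over Rab37, a gene of vesicle release, 37 over Grb2, an adaptor of receptor signalling, and 20 over Tmem104. At 69000001 to 70000000 there were 447 (359 and 412), with 52 over Dnah2, an axonemal dynein gene, 15 over the histone demethylase gene Kdm6b and 13 over Fxr2. The fifth, at 79000001 to 80000000, had 443 (377 and 364), with Ksr1, a scaffold of MAP kinase signalling, at 109, the Ras regulator Nf1 76 and Rab11fip4 58. The 5 fullest bins also held from 37 to 77 optimal peaks each.

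The 5 emptiest bins held no optimal peak and at most 1 gene start. They lay at 13000001 to 16000000, 38000001 to 39000000 and 41000001 to 42000000, with 27 to 33 pooled lines each. Replicate 1 had 33 to 49 lines in these bins and replicate 2 had 40 to 50. The emptiest, at 14000001 to 15000000, contains Pom121l12, with 0 lines over it. Each replicate list held fewer lines than the pooled list in all 5 fullest bins, and at least as many in all 5 emptiest. In all, 22 bins of chromosome 11 had no optimal peak, and 1 of them was dense (81000001 to 82000000, 268 lines, 2 genes).

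**Figure D2:**
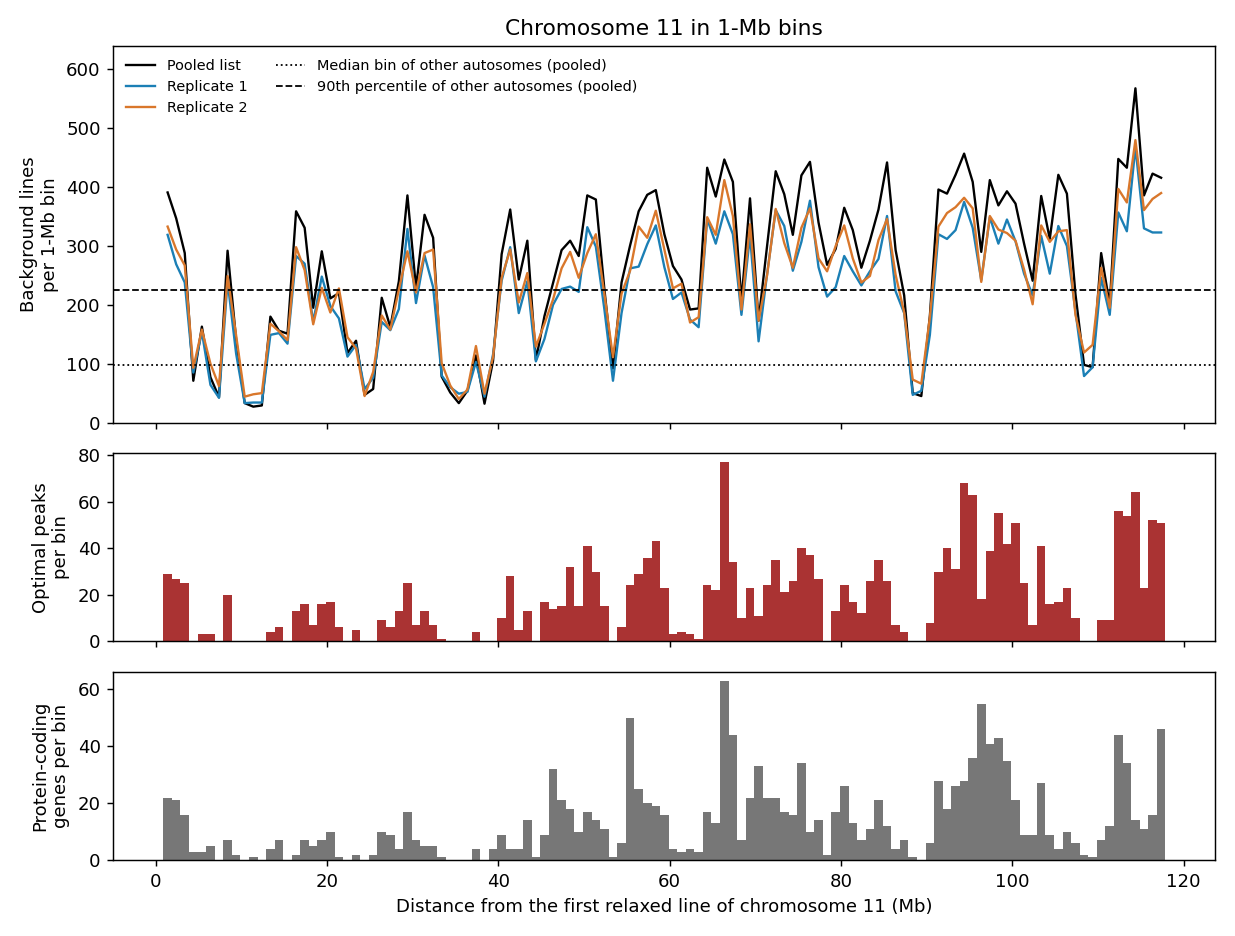
Chromosome 11 in 1-Mb bins by distance from its first line (Mb): background lines per bin in the pooled and replicate lists (top), optimal peaks per bin (middle) and protein-coding genes per bin (bottom). The 3 lists share their crests and troughs, and 75 of 117 bins of the pooled list lie above the 90th percentile of the other autosomes (dashed). The dotted line is the median of the other autosomes. Of the 42 bins that are not dense, 29 hold at most 4 genes and 21 no optimal peak, against 9 and 1 of the dense bins. A bin that is not dense can hold many genes, as 1 with 33 genes and 173 lines does.

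Taken in stretches of 10 Mb, the proximal part of the chromosome was less dense than the distal part. The 6 full bins before 10 Mb had a mean of 223 lines. Between 10 and 20 Mb the pooled mean was 141 lines per bin (129 ± 10.2 in the replicates, n = 2), with 2.30 genes per bin. Between 20 and 50 Mb the means of the 3 stretches ran from 182 to 198. From 50 Mb onwards every stretch had 285 or more, and that from 100 to 110 Mb had 360 (302 ± 6.08 in the replicates), with 20.8 genes per bin. In the pooled list and in replicate 2 (136 lines per bin), this sparsest stretch still lay above the mean density of every other autosome except chromosome 16. In replicate 1, at 122, it also lay below chromosomes 19 (130) and 9 (123).

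Gene content followed the profile, and chromosome 11 stood above the other autosomes at each level of it. Spearman's rho between pooled lines and protein-coding genes was 0.783 over the 117 bins, and 0.304 to 0.794 within the other autosomes. In bins with no gene start, the median was 45 lines on chromosome 11 (11 bins, 29 to 151) and 17 on the other autosomes (263 bins). With 1 to 4 genes it was 163 against 53, and with 5 to 9 genes 240 against 119. Bins with 10 to 19 genes held 360 against 168, and bins with 20 or more held 387 against 187. In the 10 to 19 class all 28 bins of chromosome 11 lay above the median of the other autosomes, in each of the 3 lists. In the class with 20 or more, 28 of 29 did, again in each list. The ratios of medians ran from 2.01 to 3.08 in the pooled list, 1.58 to 2.22 in replicate 1 and 1.77 to 2.43 in replicate 2.

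**Figure D3:**
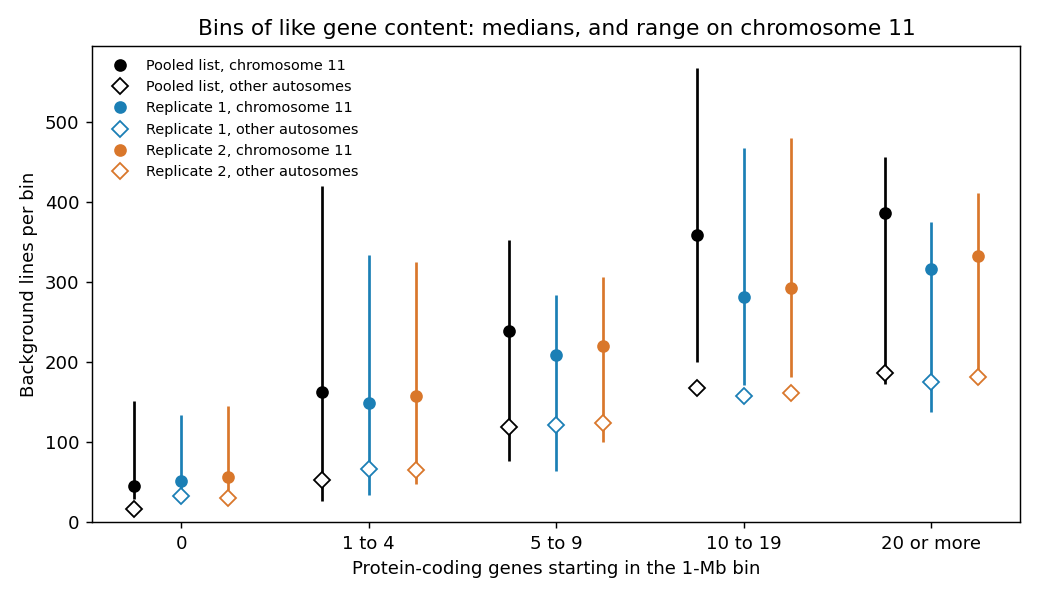
Background lines per 1-Mb bin by the number of protein-coding genes that start in it. Filled points are medians on chromosome 11 with lines from the lowest to the highest bin, open diamonds are medians of the other autosomes, and colours are the 3 lists. The filled points lie above the diamonds in all 5 classes, as with 387 against 187 pooled lines for bins with 20 or more genes.

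The excess was smallest at promoters and larger away from them. A promoter here is the sequence within 1000 bp of a protein-coding TSS, and a line was placed by its summit. On chromosome 11, 1435 background lines lay at promoters (4.51%, interval 4.28 to 4.74), where 4.79% of all autosomal background lines did. Both replicate lists went the other way, with 4.95% on chromosome 11 against 4.56% on the other autosomes in replicate 1 and 4.49% against 4.27% in replicate 2. Gene bodies held 17502 (54.9%) and intergenic sequence 12914 (40.5%). Per Mb of promoter sequence there were 435 lines on chromosome 11 and a median of 311 on the other autosomes, a ratio of 1.40. The ratio was 2.44 in gene bodies (326 against 134 per Mb) and 2.61 between genes (209 against 80.2). Replicates 1 and 2 gave 1.34 and 1.38 at promoters, 2.01 and 2.09 in gene bodies, and 2.02 and 2.25 between genes. The rule removes lines that overlap optimal peaks. Of the shorter windows used for the sequence counts, an optimal peak overlapped 45.2% on chromosome 11. The share was 32.3% on the other autosomes of the promoter table. The part of this removal in the promoter ratio was not tested.

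In the pooled list, the only one read by distance, the lines crowded around optimal peaks on every autosome, but the ratio was highest far from them. Within 1000 bp of an optimal peak lay 7.03% of the background lines of chromosome 11, at 648 per Mb of such sequence against a median of 505. At 1000 to 10000 bp the densities were 429 and 246, and at 50000 to 200000 bp they were 227 and 116. Beyond 200000 bp chromosome 11 had 98.4 lines per Mb over 32.7 Mb, against a median of 36.3 and a highest value of 68.7, a ratio of 2.71. Without the lines within 1000 bp of an optimal peak, the density of the chromosome was 2.54 times the median, against 2.60 with them. Bins with no optimal peak gave the same picture, with a median of 55.5 pooled lines in 22 bins of chromosome 11 and of 19 in 656 other bins. The medians were closer in the replicate lists, at 65.5 against 35 in replicate 1 and 79.5 against 32 in replicate 2.

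**Figure D4:**
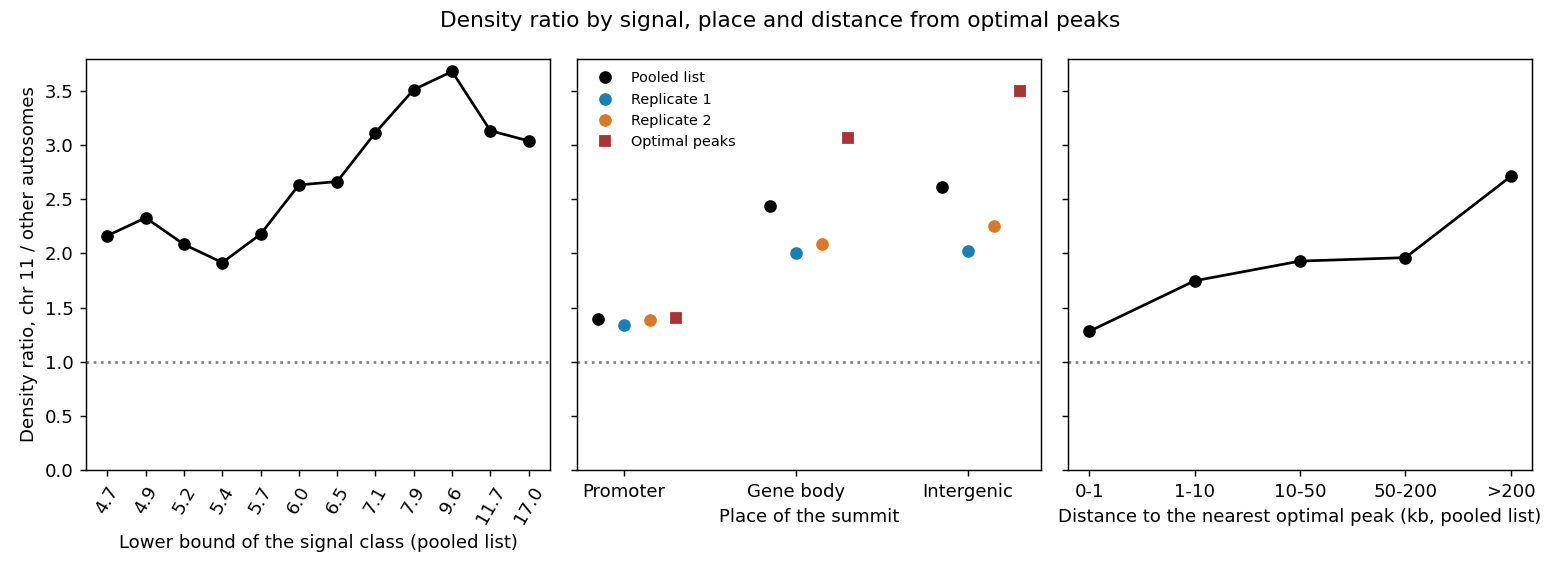
Density on chromosome 11 over the median of the other autosomes, by signal class (left, pooled list), by the place of the summit (middle, 3 background lists and optimal peaks) and by distance to the nearest optimal peak in kb (right, pooled list). The dotted line marks a ratio of 1; the ratio reaches 3.68 for signals from 9.58, is lowest at promoters and within 1000 bp of optimal peaks, and is 2.71 beyond 200000 bp.

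Most single lines were not seen in both replicates, although the density profile was. Of the 31851 pooled lines of chromosome 11, 8640 overlapped a line of each replicate by at least 1 bp (27.1%, interval 26.6 to 27.6), where 22.7% of all autosomal lines did. A further 8619 matched replicate 1 alone, 10804 replicate 2 alone, and 3788 (11.9%) neither. The share in both ran from 20.4% to 24.4% on the other autosomes, highest on chromosome 16. The autosomes with the highest share, 11 and 16, were also the densest, and the part of density in the share was not tested. The share moved with signal: 7.78% for lines below 5.30, 20.9% from 6.01 to 7.42 and 76.5% above 9.58. Above 7.42 chromosome 11 lay within the range of the other autosomes, at 43.7% against 41.0% to 45.3% for signals up to 9.58, and 76.5% against 74.8% to 79.96% above. Below 7.42 it lay above the highest of them in each class, as with 7.78% against at most 6.86%.

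The 10 strongest background lines lay in varied places: 4 at promoters, 3 inside genes and 3 between genes, from 68 to 37773 bp from an optimal peak. The first, with a signal of 65.1 (29.97 in replicate 1 and 40.2 in replicate 2), lay at chr11:101552655-101552998, 173 bp from a TSS of the autophagy receptor gene Nbr1 and 641 bp from an optimal peak. The second, 44.7 (24.1 and 26.2), lay between genes at chr11:116418259-116418602, 5399 bp from Rnf157 and 351 bp from an optimal peak. The third, 43.0 (10.5 and 30.04), lay inside Ssh2, a cofilin phosphatase gene, at chr11:77386115-77386458 and far from any optimal peak (37773 bp). The next was near Ccr7, the receptor that guides lymphocytes to lymph nodes, 13233 bp from its TSS and 2511 bp from an optimal peak (42.2; 24.5 and 19.9). A line of 42.2 inside the lysosomal adaptor gene Plekhm1 had Arhgap27 as its nearest TSS. The others of the top 10, from 37.2 down to 33.8, were nearest to Slc47a1, Cwc25, Fam161a, Morc2a and Srr, and the last of these lay inside Smg6, a gene of nonsense-mediated decay. Replicates differed widely for some of them: the line at Cwc25 had 7.29 in replicate 1 and 28.2 in replicate 2. Of all background lines of chromosome 11, 13 had a signal above the median of its optimal peaks, 32.0, and 163 above their lower quartile, 19.96.

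The rule is no threshold on signal, and the lowest optimal peaks overlapped the background range. The 5 weakest optimal peaks of chromosome 11 had signals from 4.75 to 4.84, and all 5 overlapped a stronger optimal peak. Their nearest genes were Grb2, Septin9, Nxph3, Pttg1 and Adora2b. Among optimal peaks that overlap no other, the weakest lay near Hoxb13 at 4.87 (3.53 and 4.30 in replicates 1 and 2). In all, 51 of 2197 optimal peaks of chromosome 11 had a signal below the median background line there, and 164 of 15059 on the other autosomes did.

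Optimal peaks were dense on chromosome 11 as well, and more so among the weaker ones. They stood at 18.5 per Mb, 2.71 times the median of the other autosomes (6.83) and 2.03 times the next, chromosome 19 (9.10). Their median signal, 32.0, was near the low end of the range of the other autosomes, 31.6 to 44.3. Chromosome 11 held 14.6% of the autosomal optimal peaks in the weakest of 4 equal classes by signal (interval 13.6 to 15.7), 14.5% and 11.8% in the classes between and 10.01% (9.15 to 10.9) in the strongest. At promoters their density was 1.40 times the median of the other autosomes, as for the background lines. It was 3.07 times in gene bodies and 3.50 times between genes. In bins of 1 Mb, 49 of 117 held more optimal peaks than the 90th percentile of the other autosomes (11.2% of all autosomal bins). Background and optimal counts rose and fell together along the chromosome, with a Spearman rho of 0.913 over its bins and 0.880 over the others.

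Around genes, lines were counted over gene bodies and 10000 bp to each side. The median over all 1609 protein-coding genes of the chromosome was 369 lines per Mb (quartiles 258 and 476). Genes that lie side by side share lines, and the lists were chosen with results of these data known. The 17 B-cell and lymphoid genes had 512 lines per Mb together (412 ± 32.3 in the replicates, n = 2), and 14 of them lay above that median. Ebf1, a B-cell lineage factor encoded by a long gene, had the most lines, 194 (161 and 132 in replicates 1 and 2), with 23 optimal peaks. Ikzf1, the lymphoid factor Ikaros, had 70 (64 and 57) and its relative Ikzf3, Aiolos, 63 (54 and 49). Stat5b, a transducer of cytokine signals, had 52 (49 and 28), with the replicates further apart. All 17 genes had an optimal peak over the gene or its flanks, as did 1144 of all 1609 (71.1%).

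Several lists of genes best known from other cell types were also above the median gene. The 7 listed genes of the T helper cytokine locus had 533 lines per Mb (399 ± 74.1), and all 7 lay above the median. The list leaves out other genes that lie between its members. Of these, Pdlim4 at 410 lines per Mb and Irf1, of the B-cell list, at 388 lay above the median. Slc22a5 at 360, P4ha2 at 296, Slc22a21 at 258 and Slc22a4 at 194 lay below it. The largest numbers in the list were at the DNA repair gene Rad50 (37 lines, 33 and 29 in the replicates) and the motor gene Kif3a (27 lines, 19 and 14). The cytokine gene Il13 came next (20 lines, 20 and 12). The Hoxb cluster, homeobox genes of body patterning, had 474 (338 ± 30.5), and 8 of its 10 genes lay above the median with only 2 optimal peaks in the cluster. Hoxb3 had 23 lines (17 and 14), and Hoxb7 and Hoxb8 had 17 each. The alpha-globin locus had 483 (408 ± 0), with 25 lines at the neighbouring gene Nprl3, a regulator of mTORC1, and 20 at Rhbdf1. The globin gene Hba-a1 had 7 lines, and as Hba-a1 and Hba-a2 are near-identical copies their counts are uncertain.

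The 24 listed genes for mitochondrial proteins, a class NRF1 is well known for, had 425 lines per Mb (352 ± 15.02), and 18 lay above the median. Cox10, a long gene for a heme A synthesis enzyme, had 41 lines (41 and 39 in the replicates) and Mrps23, of the mitochondrial ribosome, had 20 (16 and 13). An optimal peak lay at 22 of the 24, beside 71.1% of all genes of the chromosome. The list leaves out other genes for mitochondrial proteins, which lay on both sides of the median. Sco1 at 574 lines per Mb and Acadvl at 634 were above it. Mdh1 at 340, Ogdh at 343, Vdac1 at 268 and Pnpt1 at 251 were below it, and Pnpt1 had no optimal peak. The genes left out were not all counted, so these counts hold for the list only.

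Other lists had fewer genes above the median. The 83 olfactory receptor genes had 135 lines per Mb (117 ± 12.3), with a median per gene of 95.5, and 4 of the 83 lay above the median of the chromosome. Their largest numbers were 13 at Olfr1393 (8 and 11 in the replicates) and 12 at Olfr314 (9 and 8). The 24 type I keratin genes of the list, for filaments of epithelia and hair, had 287 (249 ± 4.65), from 87.7 to 446 per gene. The highest of them was Krt12, a cornea keratin, with 12 lines (12 and 9), and 5 of the 24 lay above the median. The list leaves out 3 other keratin genes of the chromosome, Krt222 at 669 lines per Mb, Krt33b at 381 and Krt33a at 320. Ccl chemokine genes had 338 (304 ± 20.5) with 4 of 11 above it, led by Ccl4 (15 lines, 11 and 17) and Ccl5 (13 lines, 10 and 13). The skeletal myosin heavy chain genes had 378 (297 ± 18.7) with 2 of 6 above it, Myh13 (38 lines, 24 and 24) and Myh3 (21 lines, 20 and 15). Olfactory receptors, the lowest list, had 135 lines per Mb beside a median of 103 over the whole length of the other autosomes, an unlike measure. In replicate 1 these values were 109 and 107, and in replicate 2 they were 126 and 107. Olfactory receptor genes of the other autosomes were not counted. Members of such families resemble each other, and how reads from copies were placed is not stated.

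**Figure D5:**
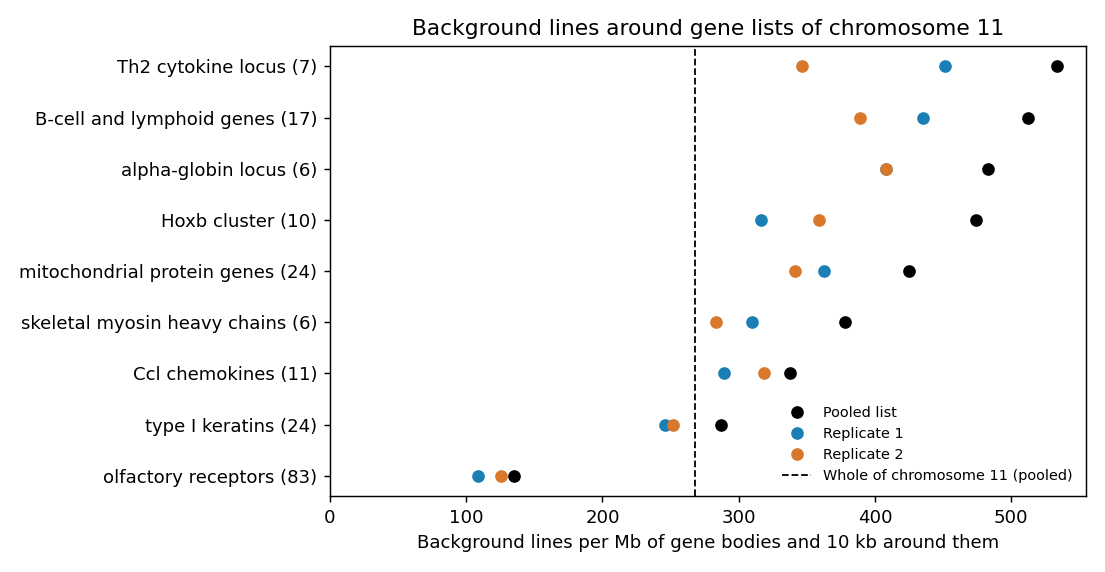
Background lines per Mb over gene bodies and 10000 bp around them, for 9 gene lists of chromosome 11 (number of genes in brackets), as points for the pooled list and each replicate list (the replicates coincide at the alpha-globin locus). The dashed line is the whole of chromosome 11, with all sequence counted, at 268 lines per Mb, while the median gene with its flanks had 369. Only the olfactory receptors, at 135, lie left of the line in the pooled list.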

How the data were processed

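NRF1 ChIP-seq of 2 libraries of CH12.LX cells was used as deposited: a relaxed list of peaks and background for each replicate and for both pooled, and the optimal and conservative sets, all on mm10 per the files deposited with the samples. The signal values are the deposited output of the authors' peak caller. The caller, aligner, thresholds and read numbers are each not given in the sources used here. The mm9 set was not used. Lines of the 19 autosomes that overlap no optimal peak by 1 bp or more were counted in 1-Mb bins that lie wholly inside the span of the pooled list, and per Mb of that span, with Python 3.11.15, pandas 2.3.3 and numpy 2.4.6. Spearman's rho came from scipy 1.17.1. The counting functions were tested on simulated lines.

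For genes, RefSeq annotation of GRCm38.p6 was used, with 20661 protein-coding genes on the autosomes. Start sites and strand came from the RefSeq promoter table for 16456 of them, and for 3904 from the gene end and the GENCODE vM1 strand of the same symbol or synonym. The other 301 have no start site here and count by the gene's middle in bins. The promoter table as used covers 17 of the other 18 autosomes. Intervals are 95% Wilson and cover counting error only. Paired signals in brackets are the strongest overlapping line of each replicate list. A bin, list or class has no replicate other than the 2 libraries.

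The members, the gene lists and the measures were chosen with earlier results of these data known. Named genes are those with most lines in the 5 fullest and 5 emptiest bins, those nearest to the 10 strongest background lines and the 5 weakest optimal peaks, and 2 to 4 members of each of the 9 lists with most lines. Hba-a1, Hoxb13 beside the lone optimal peaks, and the keratin, mitochondrial and cytokine-locus genes outside their lists were named after their values were seen. So were the dense bin without an optimal peak and the genes whose promoters are printed. Some genes that the rule names are not reported here. The alternatives were other lengths, other sets that remove lines, merged lines, stronger lines, other bins, percentiles, overlaps and promoter widths, and each replicate alone.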

Additional observations from a re-analysis of the deposited data

How the results depend on the processing

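Values were called moved where they changed by more than the SD between replicate lists, or, without replicates, by more than the counting interval. The density of chromosome 11, 2.60 times the median of the other autosomes, was 3.12 with lines above the median signal and ran from 2.07 to 2.24 with 1 replicate left out. For bins with 10 or more genes, an alternative chosen after seeing the data, the measure was another one. The median bin of chromosome 11 held 2.23 times the lines of the median bin of the other autosomes. The density ratio stayed within the SD for other lengths, for the conservative set, with lines near optimal peaks dropped and with lines merged. So did the ratio beyond 200000 bp from optimal peaks (also chosen after seeing the data). The share of dense bins, 64.1%, was 76.1% at the 75th percentile and 57.3% at the 95th, and ran from 59.0% to 63.2% with 1 replicate left out. The share of lines in both replicates, 27.1%, was 19.1% when the line had to be covered by at least 50% (16.1% on the other autosomes), and 40.55% among lines above the median signal (37.8%). The promoter share, 4.51%, was 1.92% within 500 bp and 8.99% within 2000 bp, and ran from 4.49% to 4.95% with 1 replicate left out. The Spearman correlation with gene number, 0.783, ran from 0.783 to 0.795. The signal ratio, 1.07, ran from 1.05 to 1.09 and the optimal density of 2.71 was 2.67 in the conservative set. Chromosome 11 stayed above the median of the other autosomes in density and signal under each alternative run. The causes of the changes were not tested. No paired analysis was possible because the 2 libraries form 1 group. Depth is unknown, so what it limits cannot be stated.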

Other observations

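Many background lines shared 1 signal value, and these were rarer on chromosome 11. In replicate 1 the commonest value, 2.78, was carried by 32441 autosomal background lines: 3.93% of the 26358 on chromosome 11 and 12.5% of those on the other autosomes. In replicate 2 the commonest value, 3.37, was carried by 1.31% of the lines on chromosome 11 and 3.98% on the others, and in the pooled list the commonest, 4.70, by 0.722% and 1.45%. In the pooled list this was the lowest value, and in each replicate list it lay below the median.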
